A study of Rattus norvegicus with 12 samples.

Results

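The transcripts of 8 intermediate filament genes were compared between adherent rat fibroblasts and cells recovered from tumours grown in mice. The genes were the keratins Krt7, Krt8, Krt18, Krt19 and Krt14, the type III filament genes Vim and Des, and Nes. Members were chosen by name, as every probe set that the array platform assigns to one of these symbols alone. Each gene had 1 probe set, so the set held 8 of the 31042 probe sets tested and 8 of the 14217 genes with a probe set of a single symbol. F111 is a normal fibroblast line of the Fischer rat. The A16 group was F111 cells that had adhered to plastic for 16 h. The Tumor group came from F111 cells held for 16 h without adhesion and injected under the skin of homozygous nude mice, and its RNA was taken from cells that had grown in culture for about a week out of the trypsinised tumours. Both groups are labelled as grown in medium with 10% serum, although the study's methods describe a richer serum for the tumour explants. Each group had 3 arrays, namely biological replicates 1 and 2 and an array called technical replicate 2, which was averaged with replicate 1, so that n was 2 in each group. The labels call replicates 1 and 2 biological, and the study's text describes biological and technical repeats, but neither says whether the replicates were separate cultures, tumours or animals. The p-values reflect the spread between these samples. The Tumor cultures may also hold mouse cells of the host, and the nude host lacks a thymus and so most T cells.

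Intermediate filaments are rope-like polymers that give cells mechanical strength. Keratins are the filaments of epithelia and form only when a type I keratin pairs with a type II keratin, with Krt8 (type II) pairing mainly with Krt18 (type I) in simple epithelia. Krt7 is the type II keratin of ductal and glandular epithelium, Krt19 a type I keratin of the same tissues, and Krt14 the type I keratin of the basal epidermis. Vimentin, encoded by Vim, is the filament of fibroblasts and other mesenchymal cells, desmin that of muscle, and nestin a large filament protein of neural progenitors that needs vimentin or a relative to polymerise.

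Krt8 and Krt18 lie next to each other on chromosome 7 with no gene between them in the GRCr8 assembly, and of the pair only the Krt8 transcript passed the test for a difference between the groups, so the 250 bases before each start are shown from RefSeq, 5′ to 3′ on the strand of the gene. Capitals mark matches on either strand to a motif. The TATA box was searched as TATAAA and the box bound by Sp1 as GGGCGG. The AP-1 site was searched as TGANTCA, where N is any base, and the E-box as CACCTG. The Krt8 stretch is the minus strand of chr7:135010340-135010589 and the Krt18 stretch the plus strand of chr7:135035918-135036167.
Krt8: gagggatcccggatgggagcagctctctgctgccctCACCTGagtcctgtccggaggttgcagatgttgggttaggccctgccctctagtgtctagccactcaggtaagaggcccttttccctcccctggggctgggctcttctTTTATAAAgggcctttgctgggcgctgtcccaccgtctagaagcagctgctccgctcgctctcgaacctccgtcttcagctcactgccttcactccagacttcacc
Krt18: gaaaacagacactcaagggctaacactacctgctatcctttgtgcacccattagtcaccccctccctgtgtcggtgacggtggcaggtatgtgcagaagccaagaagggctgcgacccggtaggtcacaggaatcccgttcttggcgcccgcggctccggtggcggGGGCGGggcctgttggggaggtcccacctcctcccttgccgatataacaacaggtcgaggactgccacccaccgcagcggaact
The Krt8 stretch held TATAAA on both strands in overlapping bases that begin 106 bases before the start, and CACCTG at 214 bases. The Krt18 stretch held GGGCGG at 84 bases and none of the other motifs. Of 33469 rat promoters of that length, 12.9% held TATAAA, 30.5% GGGCGG, 15.9% CACCTG and 6.34% TGANTCA, which was found in none of the 5 members with an entry. Vim held TATAAA and GGGCGG, Des 3 matches to GGGCGG and Nes 2. A match describes letters and not a bound site.

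Values are log2 of the RMA intensity, a summary of the probes of a probe set, and a gene is said to be called when limma's adjusted p was under 0.05 and the groups differed by at least 2-fold. By that rule 11.9% of all probe sets were called, 5.51% higher in Tumor and 6.39% lower. Pearson's r between arrays, over all probe sets, was 0.991 to 0.997 within a group and 0.933 to 0.949 between groups. The spiked control RNAs that are added before labelling averaged 7.65 in A16 and 4.86 in Tumor, and the 3′ minus 5′ difference of the beta-actin control probe sets was 0.67 in A16 and 2.30 in Tumor. That difference was -0.03 in A16 and 0.29 in Tumor for GAPDH, and 1.005 and 1.99 for hexokinase. The spikes added at hybridisation were higher in Tumor, at 9.95 in A16 and 10.99 in Tumor. These differences followed the groups, so labelling batch or RNA quality and the group cannot be told apart. In RNA of a whole culture, fewer cells with a transcript and less of it per cell cannot be told apart either.

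Of the 8 members, Krt8 rose in Tumor, Krt7 fell and 6 were not called. The median difference of the members, Tumor minus A16, was -0.15 on the log2 scale, against 0.03 over all genes. The 3 arrays of one group lay wholly to one side of the other group's for 6 of 8 members, against 52.6% of all probe sets. Krt8 was the 1 member whose Tumor arrays all lay above, against 27.6% of all probe sets, and those of 5 members all lay below, against 25%. Among the latter, the gap was only 1e-04 log2 units for Krt18 and 0.0033 for Vim. Under PLIER the arrays of both these genes overlapped. PLIER called 15.1% of all probe sets, and among the members the same 2 genes in the same directions.

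Krt7 was the member that changed most. The 3 A16 arrays read 11.07 in replicate 1, 11.09 in technical replicate 2 and 11.13 in replicate 2, and the Tumor arrays 7.48, 7.39 and 7.56 in the same order. The groups were separated by 3.51 log2 units, while the arrays within a group spanned no more than 0.17. In linear intensity this was 2156 to 2246 in A16 and 168 to 189 in Tumor. The mean fell from 11.11 ± 0.04 (SD, n = 2) to 7.50 ± 0.09 (SD, n = 2), a fold of 12.2 with a 95% interval of 10.1 to 14.7 (difference -3.61 ± 0.11 SE, limma adjusted p = 1.394e-05). Krt7 ranked 41 of 14217 genes by size of fall. PLIER, the second summary of the same arrays, gave a 19.2-fold fall. At 7.39 or more, the Tumor arrays still read above the lower quartile of their array.

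Krt8 moved in the opposite direction. It read 9.40, 9.39 and 9.64 on the A16 arrays and 10.94, 10.95 and 11.09 on the Tumor arrays. No Tumor array overlapped an A16 array, and the gap between them was 1.30 log2 units. The mean rose from 9.52 ± 0.17 (SD, n = 2) to 11.02 ± 0.11 (SD, n = 2), a fold of 2.83 with a 95% interval of 2.26 to 3.53 (difference 1.499 ± 0.133 SE, limma adjusted p = 0.0004415). Krt8 ranked 363 of 14217 by size of rise, and PLIER gave 2.95-fold.

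The partner keratin Krt18 did not pass the test. It read 4.98, 4.89 and 5.07 in A16 and 4.80, 4.89 and 4.85 in Tumor, below the lower quartile of all probe sets on each of the 6 arrays. The difference was -0.15 (95% interval -0.43 to 0.12, limma adjusted p = 0.367), an interval that does not reach 2-fold in either direction, and under PLIER it was 0.35. Krt19 was also below the lower quartile on all 6 arrays, at 4.60, 4.60 and 4.79 in A16 and 4.58, 4.79 and 4.82 in Tumor. Its groups overlapped under RMA, and the difference was 0.06 (95% interval -0.24 to 0.36, limma adjusted p = 0.772). Under PLIER the Krt19 difference was 0.35, with all Tumor arrays above all A16 arrays and no call (limma adjusted p = 0.104). At such dim signals, a transcript that these probes measure poorly cannot be told from one that is scarce. Krt14 read 6.33, 6.08 and 5.90 in A16 and 5.80, 5.84 and 5.60 in Tumor. The Tumor arrays were the lower ones by a gap of only 0.06, and the difference of -0.34 (95% interval -0.70 to 0.02) did not pass (limma adjusted p = 0.136). Under PLIER it was -0.63 with limma adjusted p = 0.0283, still short of 2-fold.

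**Figure D1:**
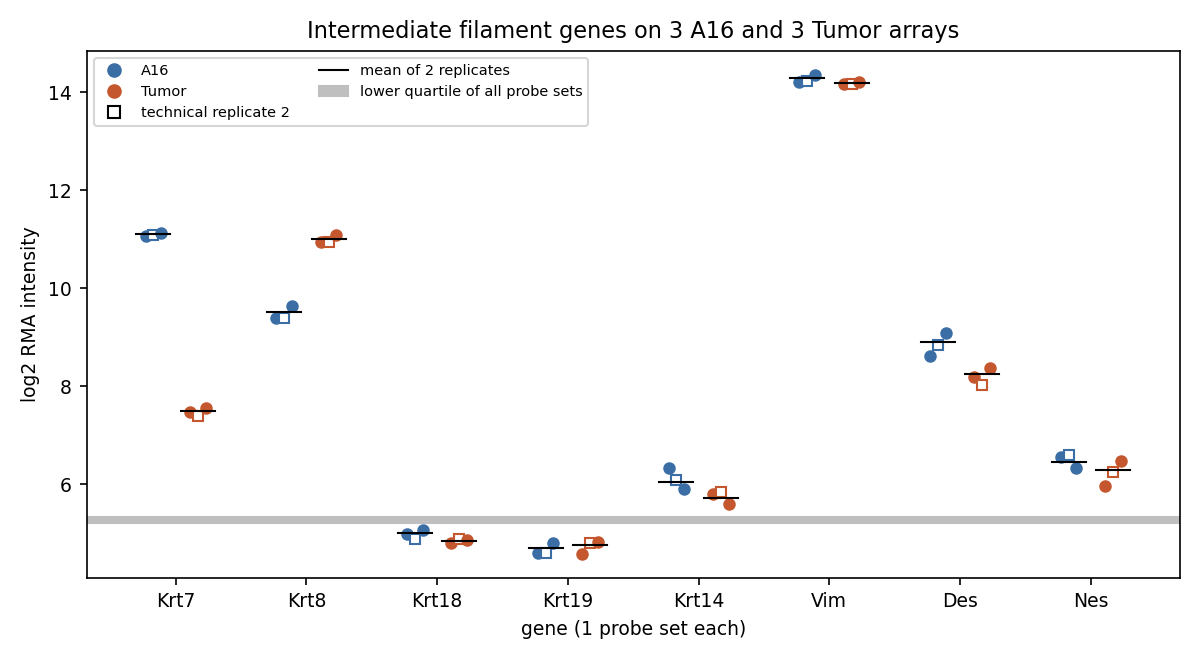
Log2 RMA intensity (y axis) of the 8 genes (x axis) on the 3 A16 and 3 Tumor arrays. Circles are biological replicates, open squares technical replicate 2, black lines the mean of 2 replicates and the grey band the lower quartile of all probe sets. Krt7 drops from above 11 to about 7.50, Krt8 rises from 9.52 to 11.02, and Krt18 and Krt19 lie under the band in both groups.

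Vim, the vimentin gene, was bright in both groups and did not pass the test. It read 14.21, 14.23 and 14.36 in A16 and 14.17, 14.18 and 14.21 in Tumor. The difference was -0.10 (95% interval -0.37 to 0.18, limma adjusted p = 0.586), and the gap between the nearest arrays of the groups was 0.0033. The brightest probe set of each array read 14.52 to 14.57, so Vim lay close to the top of the measured range, and whether that compressed its difference was not tested.

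Des, the desmin gene, was lower in Tumor by less than the 2-fold set for a call. It read 8.62, 8.84 and 9.08 in A16 and 8.19, 8.03 and 8.37 in Tumor. All 3 Tumor arrays lay below all 3 A16 arrays, by at least 0.24. The difference was -0.67 ± 0.16 SE (95% interval -1.06 to -0.27, 1.59-fold, limma adjusted p = 0.0224), and 31.8% of all probe sets had an adjusted p under 0.05 with any fold. Without Tumor replicate 1 the adjusted p of Des was 0.146. Nes read 6.55, 6.61 and 6.32 in A16 and 5.97, 6.26 and 6.48 in Tumor. Its groups overlapped and the difference was -0.15 (95% interval -0.55 to 0.25, limma adjusted p = 0.555).

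**Figure D2:**
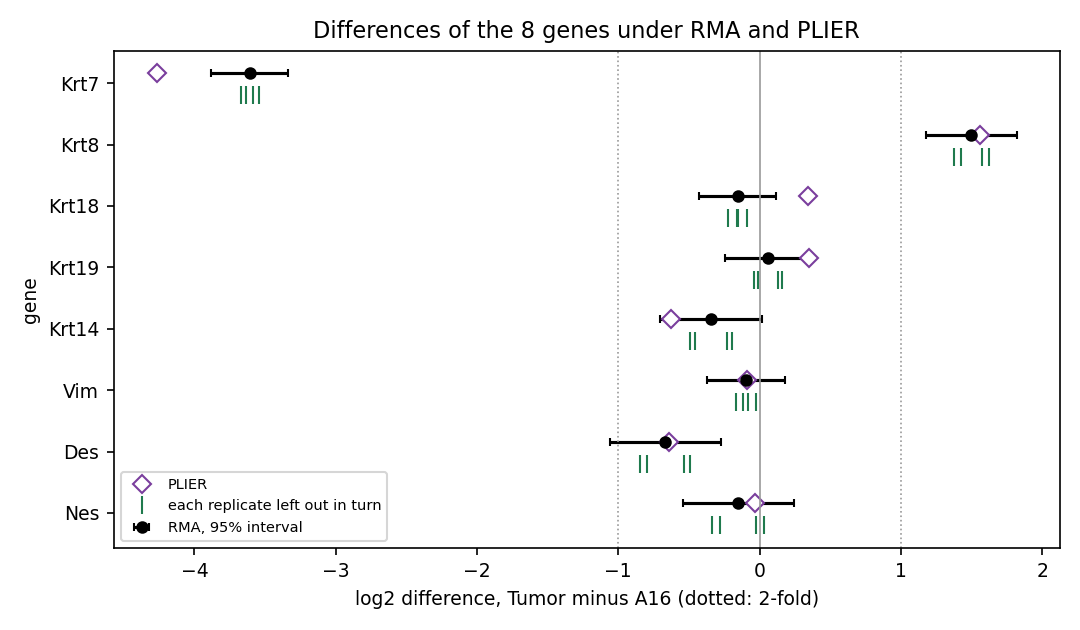
Difference between Tumor and A16 (x axis, log2, Tumor minus A16) for each of the 8 genes (y axis). Black points with bars are RMA with the 95% interval, open diamonds PLIER, green ticks the RMA values with each replicate left out in turn, and dotted lines mark 2-fold. Krt7 at -3.61 and Krt8 at 1.499 are the members beyond the dotted lines with their intervals, and Des at -0.67 lies between 0 and the line.

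The array measured 18 further keratins, which were chosen by name as the rest of the family. Together with the members these made 13 type I and 10 type II genes. Among type I genes 1 rose, none fell and 12 were not called, and among type II genes 1 rose, 1 fell and 8 were not called. By the brightest probe set 10.9% of all genes were called, 5.45% higher and 5.44% lower. The type I gene that rose was Krt23, an acidic keratin first known from pancreatic cells. It read 4.91, 5.22 and 5.29 in A16 and 7.76, 7.80 and 7.61 in Tumor, with no overlap. The rise was 5.73-fold (95% interval 4.58 to 7.16, difference 2.52 ± 0.13 SE, limma adjusted p = 5.941e-05), and PLIER gave a difference of 2.52 too. On 2 of the 6 arrays Krt23 was below the lower quartile.

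The other 17 keratins were not called. Their differences ran from -0.85 to 0.55. The lowest was Krt79, a type II keratin of the hair canal, at 6.53, 6.43 and 6.23 in A16 and 5.64, 5.35 and 5.51 in Tumor (limma adjusted p = 0.00321, 1.80-fold lower), which PLIER called lower at -1.30. The highest was Krt10, a type I keratin of the upper epidermis, at 6.63, 6.91 and 6.62 in A16 and 7.36, 7.24 and 7.197 in Tumor (limma adjusted p = 0.0135). Both were chosen for naming after their values were seen. Krt5, the type II partner of Krt14, differed by -0.09 (95% interval -0.38 to 0.20). Under PLIER the Krt5 difference was -0.75 with limma adjusted p = 0.00967, outside that interval but short of 2-fold.

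**Figure D3:**
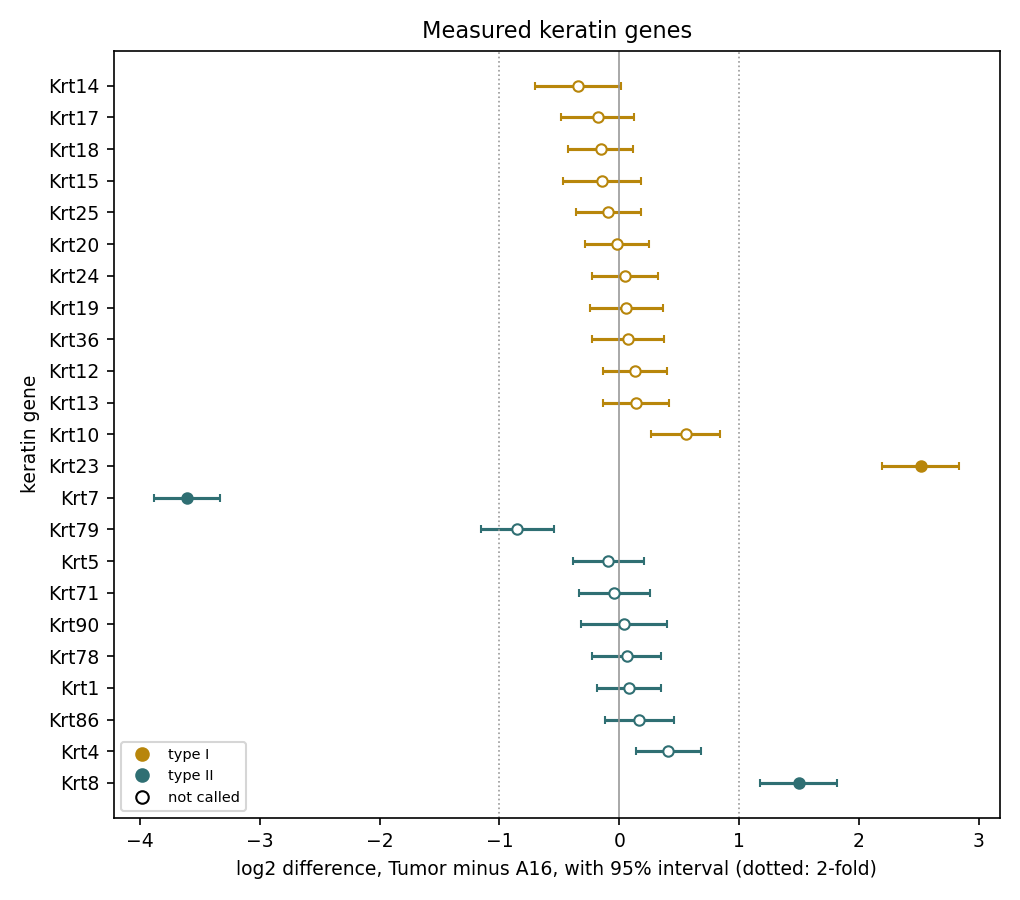
Difference between Tumor and A16 (x axis, log2, Tumor minus A16, with the 95% interval) of the 23 measured keratin genes (y axis), type I in ochre and type II in green. Filled points were called and open points were not, and dotted lines mark 2-fold. Krt23, Krt7 and Krt8 are the filled points, at 2.52, -3.61 and 1.499.

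Of 13 other intermediate filament genes, which include the nuclear lamins, neurofilaments and synemin, 1 rose, none fell and 12 were not called by the brightest probe set, with a median of -0.01 (by that probe set 10.9% of all genes were called, 5.45% higher and 5.44% lower). The gene that rose was Sync, which encodes syncoilin, a partner of desmin in muscle. It read 11.03, 11.30 and 11.54 in A16 and 12.25, 12.48 and 13.02 in Tumor, a rise of 2.54-fold (difference 1.34 ± 0.24 SE, limma adjusted p = 0.0063). Its second probe set was called the other way, at 9.75 in A16 and 8.57 in Tumor, so the direction of Sync is uncertain. The lamin gene Lmna differed by -0.87 (limma adjusted p = 0.00398) and Lmnb2 by -0.73 (limma adjusted p = 0.0166), both under 2-fold. Lmnb1 differed by -0.03 on its brightest probe set and was called lower on both others, at -1.24 and -2.62. The neurofilament genes Nefl and Nefm, together with Ina and Prph, were below the lower quartile on all 6 arrays. The neurofilament gene Nefh was bright instead, at 11.13, 11.04 and 10.92 in A16 and 10.601, 10.65 and 10.69 in Tumor. All its Tumor arrays lay below all its A16 arrays, but the difference of -0.34 was not called (limma adjusted p = 0.07285).

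Proteins that tie intermediate filaments to desmosomes, hemidesmosomes and other structures form the next group. Of 17 measured linker and desmosomal plaque genes, 5 fell, none rose and 12 were not called, with a median of -0.01. By the brightest probe set, 5.44% of all genes were called lower and 5.45% higher. Pkp2, encoding the desmosomal plaque protein plakophilin-2, read 8.00, 8.03 and 8.11 in A16 and 5.30, 5.36 and 5.25 in Tumor, a fall of 6.83-fold under RMA and 12.4-fold under PLIER (difference -2.77 ± 0.11 SE, limma adjusted p = 2.406e-05). The lower quartile of the Tumor arrays was 5.29 to 5.33, so Pkp2 lay about there in Tumor and its fold is uncertain. Eppk1, encoding the keratin-binding plakin epiplakin, read 8.29, 8.55 and 8.15 in A16 and 5.78, 5.64 and 5.52 in Tumor, a fall of 6.37-fold (limma adjusted p = 5.889e-05). In both genes the groups lay more than 2 log2 units apart. Jup, encoding plakoglobin of desmosomes and adherens junctions, read 8.13, 8.27 and 8.51 in A16 and 6.33, 6.69 and 6.30 in Tumor, a fall of 3.87-fold under RMA and 9.54-fold under PLIER (limma adjusted p = 0.0002411). Plec and Dsg2 were closer to the limit of 2-fold. Plec, encoding the cytolinker plectin, read 10.56, 11.42 and 11.002 in A16 and 9.85, 9.83 and 9.94 in Tumor, a fall of 2.15-fold (difference -1.11 ± 0.11 SE, limma adjusted p = 0.0006617). Dsg2, a desmosomal cadherin named after its values were seen, differed by -1.07 ± 0.11 SE (limma adjusted p = 0.0006648). All 3 Tumor arrays of Dsg2 lay below the lower quartile, so no fold is given for it. In Plec the first 2 of these A16 arrays, which were averaged as replicate 1, were the lowest and the highest, and without technical replicate 2 neither Plec nor Dsg2 was called (-0.89 for Plec and -0.97 for Dsg2). Dsp, encoding desmoplakin, which anchors filaments in the plaque, differed by -0.06 (95% interval -0.35 to 0.23). Under PLIER the Dsp difference was 0.425 with limma adjusted p = 0.0577, outside that interval and not called. Probe sets disagreed for Dst, encoding dystonin, at 0.91 on the brightest and -1.27, called lower, on another, and for Pkp4, at 0.37 on the brightest and -2.07, called lower, on the second.

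Hemidesmosome genes were listed with the keratinocyte markers, of which 2 rose, 1 fell and 9 of 12 were not called. The shares over all genes were 5.45% higher and 5.44% lower. Itgb4, the integrin subunit that holds keratin filaments at the hemidesmosome through plectin, read 7.58, 7.37 and 7.78 in A16 and 11.58, 11.70 and 11.97 in Tumor. All Tumor arrays lay more than 3 log2 units above all A16 arrays. The rise was 18.0-fold (95% interval 13.7 to 23.7, difference 4.17 ± 0.16 SE, limma adjusted p = 2.243e-05). Col17a1, a transmembrane collagen of the hemidesmosome, read 5.40, 5.06 and 5.43 in A16 and 7.70, 7.32 and 7.28 in Tumor, a rise of 4.19-fold under RMA and 6.44-fold under PLIER (limma adjusted p = 0.0001308). The lower quartile of the A16 arrays was 5.22 to 5.31, so Col17a1 lay about there in A16 and its fold is uncertain. Lamb3, a chain of the laminin that this integrin binds, read 8.03, 8.27 and 8.18 in A16 and 6.06, 6.05 and 6.26 in Tumor, a fall of 4.003-fold (limma adjusted p = 9.922e-05). Lama3, another chain of that laminin, differed by 0.13 (95% interval -0.27 to 0.52).

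Of 16 measured kinases, chaperones and modifiers that act on filaments, 2 rose, 1 fell and 13 were not called, with a median of -0.21. Over all genes 5.45% were called higher and 5.44% lower. Pak1, a kinase that phosphorylates vimentin and desmin, read 11.24, 11.39 and 11.19 in A16 and 9.09, 9.03 and 9.14 in Tumor, a fall of 4.46-fold (difference -2.16 ± 0.11 SE, limma adjusted p = 5.943e-05). Dnajb6, a co-chaperone that binds Krt18, read 10.37, 10.46 and 10.65 in A16 and 12.18, 12.42 and 12.42 in Tumor, a rise of 3.55-fold (limma adjusted p = 0.0001882). Cryab, the small heat shock protein that chaperones desmin, read 11.23, 11.25 and 11.27 in A16 and 12.56, 12.55 and 12.63 in Tumor, a rise of 2.53-fold (limma adjusted p = 0.0003249). In these 3 genes the arrays of the groups did not overlap.

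**Figure D4:**
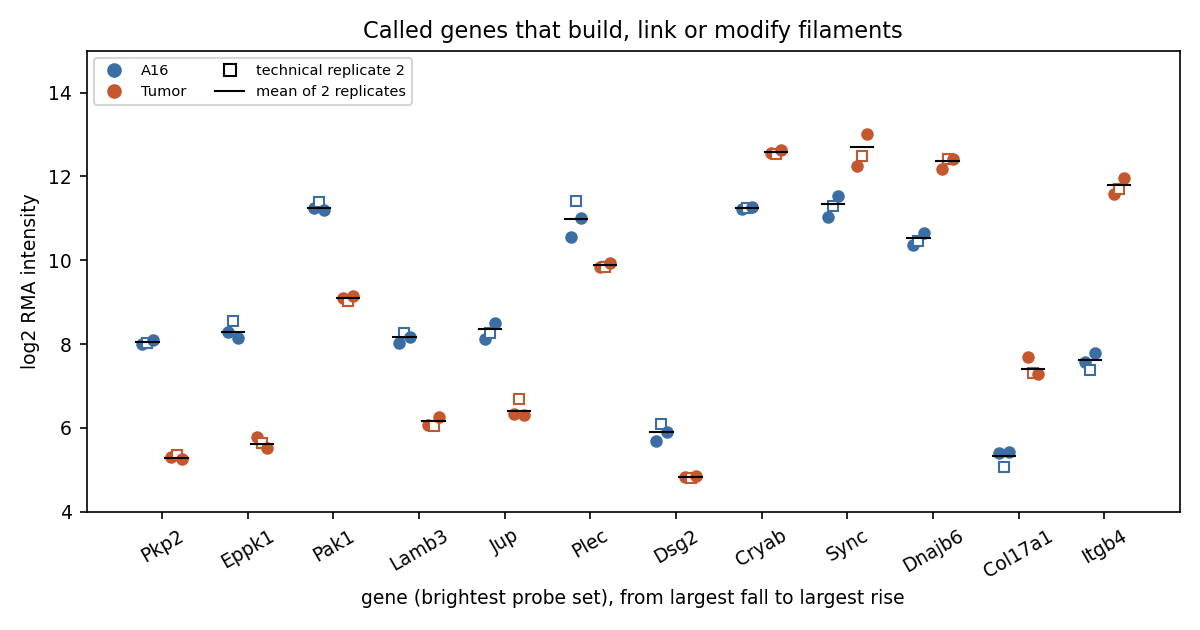
Log2 RMA intensity (y axis) on the 3 A16 and 3 Tumor arrays of called genes that build, link or modify filaments and of called keratinocyte markers. The x axis gives the genes by their brightest probe set, from largest fall to largest rise. Circles are biological replicates, open squares technical replicate 2 and black lines the mean of 2 replicates. Pkp2, Eppk1, Pak1 and Lamb3 drop by more than 2 log2 units, Itgb4 rises by 4.17, and the A16 points of Plec are spread widely.

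Regulators of keratin and vimentin genes were read as a list of 14 measured genes. Of these 3 rose, 2 fell and 9 were not called, against 5.45% of all genes higher and 5.44% lower. The median of the list was 0.40 by the brightest probe set and 0.02 when a gene's probe sets were averaged. Klf4, a factor of differentiating epithelium, went from 9.30 to 11.67 (5.16-fold higher, limma adjusted p = 0.0001911), and Zeb1, a repressor of epithelial genes, from 9.37 to 10.92 (2.92-fold higher, limma adjusted p = 0.0001947). Tead4, a partner of the YAP coactivator, went from 8.19 to 6.43 (3.41-fold lower, limma adjusted p = 0.0002165, with its other 2 probe sets at -0.52 and -0.26 and not called), and Snai1, another repressor of epithelial genes, from 9.16 to 7.87 (2.44-fold lower, limma adjusted p = 0.0005461). The third gene that rose was Klf5, named after its values were seen, at 2.40-fold on its brightest probe set and a difference of -0.70, not called, on a dimmer one, while another was called higher at 2.56.

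Markers of cells that carry these filaments were read beside the members, and their part in the results was not tested. Among all genes 5.45% were called higher and 5.44% lower by the brightest probe set. Of 17 simple epithelium markers none rose and 1 fell, the P-cadherin gene Cdh3 (4.12-fold, from 9.70 to 7.65). Epcam, a defining marker of epithelium, was below the lower quartile on all 6 arrays, and Cdh1, encoding E-cadherin, went from 4.94 to 5.87 without a call (1.91-fold, limma adjusted p = 0.00169), although PLIER called it higher. The A16 arrays of that Cdh1 probe set lay below the lower quartile, which leaves its fold uncertain. The second Cdh1 probe set differed by 0.02 and was not called. The summed linear intensity of that list was 1742 to 1879 in A16 and 1226 to 1301 in Tumor, but without Cdh3 it was 935 to 1058 and 1009 to 1080, and the median difference of the list was 0.002. The keratinocyte list summed to 1307 to 1450 in A16 and 4294 to 5188 in Tumor. Without Itgb4 that sum was 1115 to 1230 and 1098 to 1241, and the list median was 0.03. Of 8 mesothelium markers, from the lining cells that carry both Krt7 and Krt8, 1 rose and 2 fell. Those that fell were Msln, from 11.23 to 8.999 (4.68-fold), and Wt1, from 7.05 to 5.07 on its brightest probe set, and Lrrn4 rose from 5.77 to 6.96 (2.29-fold). The Tumor arrays of that Wt1 probe set lay below the lower quartile, which leaves its fold uncertain, and its second probe set differed by -0.49 without a call. The other 2 probe sets of Lrrn4 differed by 0.26 and 0.07 and were not called. This list summed to 2604 to 3321 in A16 and 858 to 980 in Tumor, or 429 to 475 and 383 to 415 without Msln, and its median was -0.20.

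Beside Des, 3 of 19 muscle markers fell and none rose, against 5.44% of all genes called lower and 5.45% higher. Tagln, a smooth muscle actin-binding protein, fell 27.2-fold under RMA and 47.8-fold under PLIER (from 11.51 to 6.75), Tnnc1, the slow troponin C, 9.16-fold (from 11.60 to 8.40), and Acta2, smooth muscle actin, 3.05-fold (from 11.02 to 9.42). The muscle list summed to 8250 to 9879 in A16 and 2070 to 2496 in Tumor, with a median difference of -0.06, and Myod1, which defines skeletal muscle cells, was below the lower quartile on all 6 arrays. Beside Nes, 1 of 13 neural, glial and Schwann markers rose, the glutamate transporter gene Slc1a3 (6.32-fold, from 6.20 to 8.86). The list summed to 899 to 981 in A16 and 1185 to 1409 in Tumor, but to 828 to 919 and 689 to 811 without Slc1a3, and its median was 0.12.

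Beside Vim, 6 of 17 fibroblast markers fell and 2 rose, against 5.44% of all genes called lower and 5.45% higher. Those that changed most were the collagen genes Col1a1, from 14.19 to 10.73 (difference -3.46), Col6a1, from 7.50 to 10.21 (6.54-fold higher), and Col5a1, from 12.41 to 9.77 (6.23-fold lower), and then Sparc, from 13.01 to 10.51 (5.65-fold lower). The list summed to 87194 to 98329 in A16 and 50346 to 52174 in Tumor, with a median difference of -0.19, and Pdgfra, a defining fibroblast receptor, read 10.43 and 10.37. Of 10 endothelium markers 1 rose, Flt1 (5.01-fold under RMA and 9.45-fold under PLIER, from 5.79 to 8.11, while its other 2 probe sets differed by -0.05 and 0.20 and were not called), with a list median of -0.01 and a sum of 853 to 991 in A16 and 965 to 1034 in Tumor, or 799.6 to 938 and 699.5 to 754 without Flt1. Of 14 macrophage and leukocyte markers 2 rose, Csf1r (8.80-fold under RMA and 18.4-fold under PLIER, from 5.46 to 8.59) and Cd68 (2.11-fold, from 6.01 to 7.09), with a list median of 0.21 and a sum of 1651 to 1833 in A16 and 2102 to 2224 in Tumor, or 1612 to 1785 and 1707 to 1839 without Csf1r. Adgre1, the F4/80 antigen of macrophages, was the 1 gene of that list below the lower quartile on all 6 arrays. Under PLIER its difference was 0.78, without a call. Cd14, of the same list, read 9.93 in A16 and 9.76 in Tumor and was not called.

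The genes around the members were read for their gene order in GRCr8. Krt7 lies in the same keratin cluster on chromosome 7 as Krt8 and Krt18, so the nearest measured genes that are no keratins, 4 on each side, were the same 8 for all 3. Keratins and unmeasured genes were passed over, so some of these neighbours are far off. Between the Krt8 and Krt18 pair and the 4 before it lay 29 to 33 genes. Between Krt7 and the 4 after it lay 28 to 31. None rose and 1 fell, Tns2 (difference -1.61), with a range of -1.61 to 0.49 and a median of -0.22. Without Tumor replicate 1, Tns2 was at -1.30 and was not called. Around Krt19 and Krt14, which share a cluster on chromosome 10, none rose and 2 of 8 fell, Top2a (-1.03) and the plakoglobin gene Jup (-1.95). Top2a is separated from Krt19 by 54 genes and from Krt14 by 56, and Jup by 9 and 7. Around Vim 1 of 8 rose, Rsu1 (1.30). Around Des 3 of 8 fell, Dnajb2 (-1.24), Gmppa (-1.32) and Chpf (-1.27), and around Nes 1 of 8 rose, Crabp2 (2.19). Of all genes, by the brightest probe set, 5.45% were called higher and 5.44% lower. Whether position played a part was not tested.

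The genes most like the 3 members with the largest differences were found by the distance between profiles over the 6 arrays, each centred on its mean, among 14209 genes. Nearest to Krt7 were Lox, the collagen cross-linking enzyme, at a distance of 0.28 (difference -3.53), the chemokine gene Cxcl11 at 0.28 (difference -3.81) and Oasl, an interferon-induced gene, at 0.30 (difference -3.64). Nearest to Krt8 were Frrs1 at 0.16, Tbc1d8 at 0.16 and Ggact at 0.17, which differed by 1.58, 1.60 and 1.41. Nearest to Des were Slc37a4 at 0.10, the elongation factor gene Eef2 at 0.11 and the collagen receptor gene Ddr1 at 0.12. Pearson's r of these 9 profiles with their member was 0.994 to 0.999 over arrays that fall into 2 groups, so the likeness describes mainly the group difference.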

How the data were processed

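RNA of 6 Affymetrix rat arrays was summarised by the authors with both RMA and PLIER, giving 12 sample records whose deposited values are linear intensity, already background-corrected and normalised. Versions of both tools: not given in the sources used here. Columns of per-sample values left unused numbered 0. Here log2 was taken, and nothing was added to the PLIER values, whose lowest was 16.0001 on each array. Of 31099 probe sets 57 control ones were left out, and technical replicate 2, which has no biological number, was averaged with replicate 1. Tumor was compared with A16 by limma 3.58.1 in R 4.3.3 (lmFit, eBayes, two-sided, Benjamini-Hochberg over 31042 probe sets), and called at adjusted p under 0.05 and 2-fold. Precision is limited by the number of arrays.

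Of the probe sets, 20826 had one symbol, 436 several and 9780 none in the platform annotation, and 4525 genes had more than 1 probe set. The brightest probe set stood for a gene in lists. The members and lists were chosen with earlier results of these data known, and no list was tested. Named by rule were all members, up to 4 called genes of a list by size of difference (8 for filament genes), called neighbours and the 3 nearest profiles. Genes of a list named without a call, such as Epcam, Myod1, Pdgfra, Adgre1 and Lmna, fall outside that rule. They were picked with their values known. The fit was tested on simulated data. Alternatives were PLIER, other uses of technical replicate 2, median centring, a filter on dim probe sets, a replicate block, other variance settings, the methods' t-test, mean of probe sets, and each replicate left out. RefSeq promoters were read for 5 of 8 members, and protein sequences were not analysed here.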

Additional observations from a re-analysis of the deposited data

How the results depend on the processing

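The call of Krt7 as lower and of Krt8 as higher held under PLIER, each use of technical replicate 2, median centring, the filter on dim probe sets (which drops Krt18 and Krt19), the trended and robust variance model, the replicate block and each replicate left out, with 1 member higher and 1 lower each time. Differences ran from -4.48 to -3.54 for Krt7 (highest limma adjusted p 0.000999) and from 1.38 to 1.62 for Krt8 (highest limma adjusted p 0.00789). With each replicate left out, 1651 to 1830 probe sets were called higher, 1684 to 2502 lower, and 1 to 1 members in each direction. PLIER with an offset of 1 (16 subtracted and 1 added before log2) called 3113 higher. The methods' t-test, with 2 values a group, called 1607 higher and 1493 lower at an unadjusted p, members 1 and 1. After Benjamini-Hochberg it called 4 higher and 8 lower, members 0 and 0. With the replicate block 1715 were called higher and 2035 lower. The replicate numbers were not shown to pair samples: there are 2 pairs, and their deviations correlated at r = 0.12. No call of a member changed under the block. Signs turned for Krt18 under PLIER (0.35, and 0.45 with an offset of 1), for Krt19 without A16 replicate 1 (-0.038) and without Tumor replicate 2 (-0.0087), and for Nes without Tumor replicate 1 (0.034). With each replicate left out, Krt19 ran from -0.038 to 0.16 and Nes from -0.33 to 0.034; the cause was not tested. Leaving out a replicate leaves 1 in its group, assumed to vary like the other group. Of 879 values for 63 other called or named genes under these alternatives (the adjusted t-test aside), 861 kept their call, 5 lost it, 13 gained one and 0 reversed. Members have 1 probe set each, so their mean of probe sets is the same value.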
